A study of Mus musculus with 29 samples.

Results

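The genes described here are 36 genes of the integrated stress response, amino acid synthesis, folate one-carbon metabolism, amino acid uptake and tRNA export, followed in mouse splenic CD4 T cells. They were taken by gene symbol, with earlier results of these data known. All 36 had a row in a table on cell types (54532 rows) and in a table on Smad guides (55421 rows). By role they were 12 integrated stress regulators, 8 enzymes of amino acid synthesis, 5 folate one-carbon enzymes, 10 amino acid transporters and the tRNA exporter Xpot.

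Gene expression was measured by QuantSeq 3′ mRNA sequencing, which sequences 1 short stretch close to the 3′ end of each mRNA, in 17 libraries from C57BL/6 mice. The series set out to find lipid synthesis genes raised in regulatory T (Treg) cells and to ask how Smad2 and Smad3, which carry the TGF-β signal to the nucleus, bear on Acsl6. One table held 3 libraries each of uncultured naive cells, of Th0 cells cultured 5 days in 15 ng/ml IL-2, and of Treg cells cultured equally long in that IL-2 plus 10 ng/ml human TGF-β. The other held 2 libraries each of Treg cultures, all with the same IL-2 and TGF-β, labelled as without a guide RNA, sgSmad2, sgSmad3 or sgSmad2/3. No-guide cultures stand as the controls. The labels used here name neither a control guide nor how the guides and the nuclease were delivered, and Treg cultures of this kind are made in vitro, not taken from mice. Whether replicates are separate animals or cultures is not in the labels, so p-values here rest on a spread between libraries that may be purely technical. In bulk samples, fewer cells of a type and less RNA per cell cannot be told apart.

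When amino acids run short, heme is lacking, unfolded protein builds up or mitochondria fail, kinases phosphorylate the translation factor eIF2. General translation then falls, while the mRNA of the transcription factor ATF4 is translated more. ATF4 pairs with C/EBP proteins and raises genes that import and make amino acids, charge tRNAs and feed one-carbon units into mitochondrial folate metabolism. In T cells these genes are known to rise after activation, when cells grow and need serine, glycine and formate for nucleotides. ATF4 is regulated in large part by translation, which tag counts do not show.

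ATF4 with a C/EBP partner binds a composite element, the C/EBP-ATF response element (CARE). The letters TGATGNAA were searched on both strands in the 300 bases from 250 before to 50 after each RefSeq gene start (GRCm38.p6). They were in 8 of the 31 members that had such a promoter (25.8%) and in 1219 of all 27025 genes (4.51%). The E-box CACGTG, searched the same way and apart from the CARE letters, was in 3 of the 31 members (9.68%) and in 8.09% of all genes. The cytosolic aminoacyl-tRNA synthetases, taken up further on, had 13 genes with such a promoter. Of these, 5 held the CARE letters (38.5%) and 4 the E-box (30.8%), so neither is particular to the members. The members with CARE letters were Atf3, Nupr1, Trib3, Chac1, Asns, Pycr1, Slc7a11 and Slc1a4. A match of letters is a description and not a binding site. The stretches below, from RefSeq promoters of 6 of these members, show where the letters lie, because the same members are followed by their levels further on. Each is written 5′ to 3′ on the strand of its gene, with the match in capitals.
Atf3: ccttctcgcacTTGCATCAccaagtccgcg
Trib3: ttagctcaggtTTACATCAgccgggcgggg
Chac1: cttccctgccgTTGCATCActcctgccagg
Asns: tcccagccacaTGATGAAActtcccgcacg
Pycr1: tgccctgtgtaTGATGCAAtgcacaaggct
Slc1a4: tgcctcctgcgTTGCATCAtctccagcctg
The stretches lie at chr1:191183425-191183454 (Atf3, minus strand), chr2:152344028-152344057 (Trib3, minus strand), chr2:119351038-119351067 (Chac1, plus strand), chr6:7693214-7693243 (Asns, minus strand), chr11:120643833-120643862 (Pycr1, minus strand) and chr11:20332699-20332728 (Slc1a4, minus strand). The match begins 23 bases before the start of Asns, 110 before that of Atf3, 193 before that of Chac1 and 103 before that of Pycr1. In Slc1a4 it begins 4 bases before the start, and in Trib3 14 bases after it.

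The cell-type libraries held 797612 to 1551478 reads and the Smad libraries 1294583 to 1602297. Levels are CPM, the reads of a gene scaled to the library total, and a count of 0 allows up to 3 reads, or 1.93 to 3.76 CPM in the cell-type libraries. This limit covers counting error only, as no molecular identifiers were stated. Changes are differences of log2(CPM + 1) from limma with their standard error (SE), and a gene is called at a limma adjusted p under 0.05 over all genes tested. On this scale, changes of genes with low counts come out too small. Foxp3, the transcription factor that marks Treg cells, was higher in Treg than in Th0 libraries (log2 change 3.99). Naive libraries held marker tags of other cells, with summed levels of 21.0 to 166 CPM for 8 B cell markers, 19.9 to 94.2 for 9 myeloid markers and 496 to 1172 for 5 red cell markers. The same sums lay at or below 8.88, 2.12 and 5.55 CPM in Th0 and Treg libraries. Both contrasts with naive cells carry that difference, whose part in them was not tested. The 8 markers of CD8, NK and gamma-delta T cells were not low in culture. They summed to 84.2 to 97.8 CPM in naive, 64.9 to 147 in Th0 and 119.5 to 314 in Treg libraries. Of these 8, 1 was called higher in Treg than in Th0, and the part of this list in that contrast was not tested. How the counting treated strand and overlapping genes is unknown from the sources used here, so reads shared by Ddit3 and Mars1, by Shmt2 and Ndufa4l2, by Psph and Cct6a, by Atf5 and Nup62, or by Slc6a9 and Ccdc24 cannot be told apart.

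Culture raised most of these genes above naive cells, and more of them in Th0 than in Treg libraries passed the test. In Th0 against naive cells 27 of 34 tested members were higher and 2 lower, where 24.3% of all 14165 genes tested were higher and 17.6% lower. In Treg against naive cells 20 were higher and 5 lower, where 23.3% and 16.5% of all genes were. The median change of the members was 1.91 in Th0 and 0.87 in Treg against naive cells, and that of all genes was 0.08 in both. Both contrasts share the naive libraries. Cth, an enzyme that makes cysteine, and Slc7a11, which imports cystine, had too few reads to test: Cth had tags in 1 Th0 library (1.06 CPM) and Slc7a11 in 1 Th0 (1.06 CPM) and 1 Treg library (0.64 CPM). Quantile scaling moved the median of all genes by -0.13 in Treg and -0.11 in Th0 against naive cells. The calls under that scaling were 16 higher and 5 lower in Treg, and 27 higher and 2 lower in Th0.

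**Figure D1:**
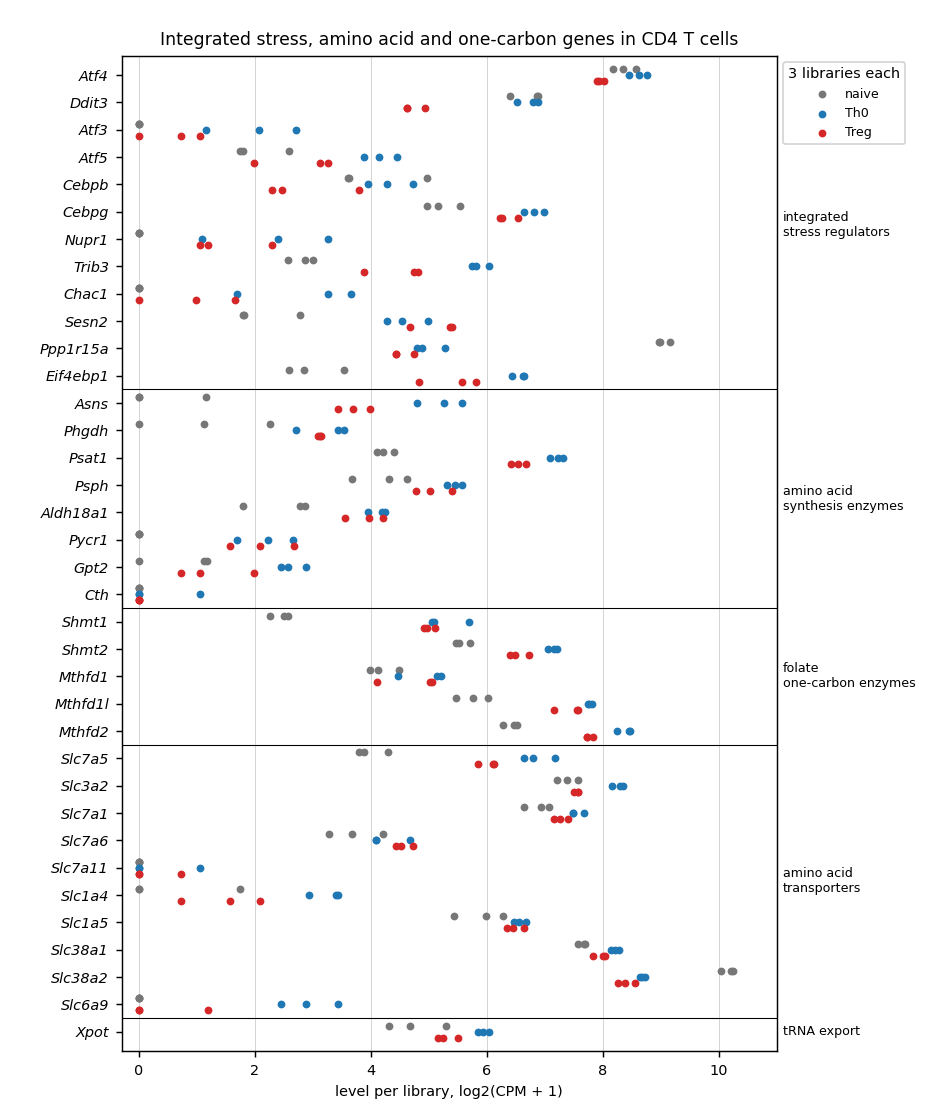
Level of each of the 36 genes in every naive, Th0 and Treg library, as log2(CPM + 1), grouped by role. Points are single libraries, 3 per group; Ppp1r15a and Slc38a2 are highest in naive libraries, while Asns, Psat1 and Shmt1 are lowest there.

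Asns, which makes asparagine from aspartate, had the largest increase among the members on the log2(CPM + 1) scale in both cultures. Its naive level was near 0, so its place depends on the scale: edgeR placed Pycr1, at 0 in all naive libraries, above Asns in Treg against naive. It had 0, 1.24 and 0 CPM in the naive libraries, 37.1, 26.6 and 46.5 in Th0 and 11.8, 14.8 and 9.80 in Treg. The 3 groups did not overlap, and Treg lay between naive and Th0. The change from naive was 4.82 (SE 0.44) in Th0 and 3.31 (SE 0.44) in Treg, with limma adjusted p = 3.02e-08 and 4.83e-06. Eif4ebp1, which encodes the translation repressor 4E-BP1, had 5.01, 6.19 and 10.5 CPM in naive, 97.5, 98.8 and 85.7 in Th0 and 54.9, 46.4 and 27.4 in Treg libraries. It lay in the same order, with no overlap between groups (3.58 in Th0 and 2.41 in Treg against naive). Trib3, a pseudokinase that ATF4 and CHOP induce and that restrains them, had 6.27, 4.96 and 7.01 CPM in naive, 55.1, 64.4 and 52.7 in Th0 and 25.8, 27.1 and 13.7 in Treg libraries. Its change from naive was 3.05 in Th0 and 1.67 in Treg. Again no library of one group reached another group.

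Serine is made from glycolytic carbon by Phgdh, Psat1 and Psph in turn, and all 3 rose in both cultures. Psat1, the aminotransferase of the middle step, had 20.1, 16.1 and 17.5 CPM in naive, 158, 134 and 149 in Th0 and 91.5, 101 and 84.2 in Treg libraries. Its change from naive was 2.97 (SE 0.15) in Th0 and 2.31 (SE 0.15) in Treg, with limma adjusted p = 9.01e-12 and 3.86e-10. Phgdh, the first enzyme, was at 0 to 3.76 CPM in naive, 5.55 to 10.6 in Th0 and 7.54 to 7.84 in Treg libraries. Psph, the phosphatase of the last step, had 11.7 to 23.5 CPM in naive, 38.8 to 46.6 in Th0 and 26.4 to 40.9 in Treg libraries. The call of Psph in Treg against naive was lost without naive replicate 3 (limma adjusted p = 0.059) or Treg replicate 1 (0.065) and with quantile scaling (0.054). Both enzymes of proline synthesis also rose in both cultures: Aldh18a1 from 2.48 to 6.27 CPM in naive to 14.4 to 18 in Th0 and 10.8 to 17.4 in Treg, and Pycr1 from 0 in all 3 naive libraries to 2.22 to 5.30 in Th0 and 1.96 to 5.38 in Treg. The Pycr1 means, 3.73 CPM in Th0 and 3.52 in Treg, did not exceed the 3.76 CPM that a naive count of 0 allows. Gpt2, the mitochondrial alanine aminotransferase, was higher than naive in Th0 (4.44 to 6.36 CPM against 0 to 1.25, change 1.86) and was not called in Treg (0.64 to 2.94 CPM, change 0.49).

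Folate enzymes move the carbon of serine onto folate and on to formate. Shmt1 works in the cytosol and Shmt2 in mitochondria, Mthfd2 and Mthfd1l carry the mitochondrial steps to formate, and Mthfd1 uses formate in the cytosol. Shmt1 had 3.76, 4.96 and 4.68 CPM in naive, 50.9, 32.2 and 33.1 in Th0 and 33.4, 29.0 and 30.4 in Treg libraries, and its change from naive was 2.84 in Th0 and 2.55 in Treg. Mthfd1l rose from 43.3 to 63.9 CPM in naive to 212 to 225 in Th0 and 142 to 188 in Treg libraries. Mthfd2 rose from 76.8 to 91.2 CPM to 303 to 352 in Th0 and 209 to 226 in Treg. Shmt2 rose from 43.3 to 51.4 CPM to 132 to 147 in Th0 and 83.1 to 104 in Treg. Mthfd1 was the member of the 5 that passed in neither culture: it had 14.9 to 21.3 CPM in naive, 21.1 to 36 in Th0 and 16.1 to 32.3 in Treg libraries, with changes of 0.74 (limma adjusted p = 0.051) and 0.53 (0.173).

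Among the transporters, Slc7a5 and Slc3a2 together form the LAT1 carrier of large neutral amino acids, Slc3a2 being the shared heavy chain. Slc7a5 had 13.8, 18.6 and 12.9 CPM in naive, 98.5, 110 and 143 in Th0 and 68.9, 67.7 and 56.8 in Treg libraries. All Treg libraries lay above all naive and below all Th0 libraries, and the change from naive was 2.88 (SE 0.19) in Th0 and 2.04 (SE 0.19) in Treg. Slc3a2 had 188, 166 and 147 CPM in naive, 284, 312 and 325 in Th0 and 188, 189 and 181 in Treg libraries. It rose in Th0 (0.88, SE 0.11) and was not called in Treg against naive (0.16, 95% interval -0.06 to 0.39). Slc7a1, which carries arginine and lysine, Slc1a5, which carries glutamine and other neutral amino acids, and Slc38a1, another glutamine carrier, rose by 0.67, 0.67 and 0.57 in Th0 and by 0.39, 0.59 and 0.32 in Treg. In Treg, the calls of these 3 and of Slc7a6 were lost under some of the 19 other settings, with a highest limma adjusted p of 0.10 for Slc7a1 and Slc1a5, 0.11 for Slc38a1 and 0.15 for Slc7a6.

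Members at 0 in all 3 naive libraries included Slc6a9, the glycine transporter GlyT1, Chac1, which degrades glutathione, Nupr1, a small stress-induced chromatin protein, and Atf3, a stress-induced repressor. Slc6a9 had 6.36, 4.44 and 9.80 CPM in Th0 and 0, 1.29 and 0 in Treg libraries. Chac1 had 11.7, 2.22 and 8.57 CPM in Th0 and 2.15, 0 and 0.98 in Treg. Taking 3 reads in the smallest naive library, or 3.76 CPM, as the upper limit, the Th0 mean was at least 1.83-fold higher for Slc6a9, at least 1.99-fold for Chac1 and at least 1.23-fold for Nupr1. The Th0 mean of Atf3, 3.32 CPM, did not exceed this limit. Nupr1 had 4.24, 1.11 and 8.57 CPM in Th0 and 1.08, 1.29 and 3.92 in Treg, and Atf3 had 3.18, 5.55 and 1.22 in Th0 and 1.08, 0.64 and 0 in Treg. These levels are a few reads per library. The call of Nupr1 in Treg against naive (limma adjusted p = 0.041) was lost in 8 of 18 other settings.

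Sesn2, a leucine sensor that restrains mTORC1, had 2.51, 2.48 and 5.84 CPM in naive, 30.7, 22.2 and 18.4 in Th0 and 40.9, 40.0 and 24.5 in Treg libraries. It rose in both cultures (2.47 in Th0 and 3.01 in Treg against naive). The Treg range overlapped the Th0 range, so Sesn2 did not follow the order of Asns, Eif4ebp1 and Trib3. Cebpg, a dimer partner of ATF4, rose from 30.1 to 45.6 CPM in naive to 98.8 to 126 in Th0 and 73.5 to 91.5 in Treg libraries, by 1.59 and 1.12. Atf5, Slc1a4 and Xpot were called higher than naive in Th0, by 2.12, 2.68 and 1.18, and were not called in Treg, at 0.75, 0.87 and 0.53.

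Another set of members was highest in naive cells. Ppp1r15a encodes GADD34, which brings a phosphatase to eIF2 and ends the response. It had 508, 499 and 573 CPM in naive, 28.6, 26.6 and 38.0 in Th0 and 25.8, 20.6 and 20.6 in Treg libraries. It fell by 4.05 (SE 0.16) in Th0 and by 4.50 (SE 0.16) in Treg, with limma adjusted p = 2.01e-13 and 5.14e-14. Slc38a2, the glutamine and alanine carrier SNAT2, had 1184, 1046 and 1215 CPM in naive, 422, 398 and 405 in Th0 and 331, 306 and 376 in Treg libraries. It fell by 1.49 in Th0 and by 1.76 in Treg, and the naive libraries lay far above both cultures.

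Ddit3, Atf4 and Cebpb were called lower than naive in Treg and were not called in Th0. Ddit3 encodes CHOP, a C/EBP-family factor of prolonged stress. It had 115, 83 and 117 CPM in naive, 110, 117 and 90.6 in Th0 and 23.7, 29.6 and 23.5 in Treg libraries, so naive and Th0 overlapped and all Treg libraries lay below both. Its change from naive was 0.02 in Th0 (95% interval -0.34 to 0.38) and -1.99 in Treg (limma adjusted p = 1.62e-08). Atf4 had 326, 289 and 381 CPM in naive, 351, 434 and 392 in Th0 and 244, 259 and 237 in Treg libraries. It changed by 0.24 in Th0 (limma adjusted p = 0.079) and by -0.42 in Treg (0.0043). Cebpb, a partner of ATF4 in dimers, had 11.3, 11.2 and 30.4 CPM in naive and 12.9, 4.51 and 3.92 in Treg libraries (-1.21, limma adjusted p = 0.037). Those ranges overlapped, and the Cebpb call was lost without naive replicate 3 (-0.76, limma adjusted p = 0.21), without Treg replicate 2 (0.13) and without Treg replicate 3 (0.14). With limma run without an intensity trend, the Treg calls of Atf4 (limma adjusted p = 0.081) and Cebpb (0.097) were lost too.

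Adding TGF-β to the culture went with lower levels of many of these genes. In Treg against Th0, 10 of 34 tested members were called lower and 0 higher, where 2.45% of all 14165 genes were called lower and 2.99% higher. At an unadjusted p under 0.05 the counts were 24 lower and 0 higher, where 7.79% and 7.91% of all genes were. The change was below 0 in 32 of 34 and above 0 in 2, where 48.3% of all genes lay above 0. The median was -0.64 for the members against -0.01 for all genes. For 24 members (70.6%) every Treg library lay below every Th0 library, which held for 11.2% of all genes. For 0 members every Treg library lay above every Th0 library, which held for 10% of all genes. Libraries are compared by CPM here, so equal reads at unlike library sizes count as separate, as for Atf3, Chac1 and Ppp1r15a. Under quantile and median-of-ratios scaling 10 were lower and 0 higher as well, while edgeR on the recovered reads called 17 lower and limma without an intensity trend 4.

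**Figure D2:**
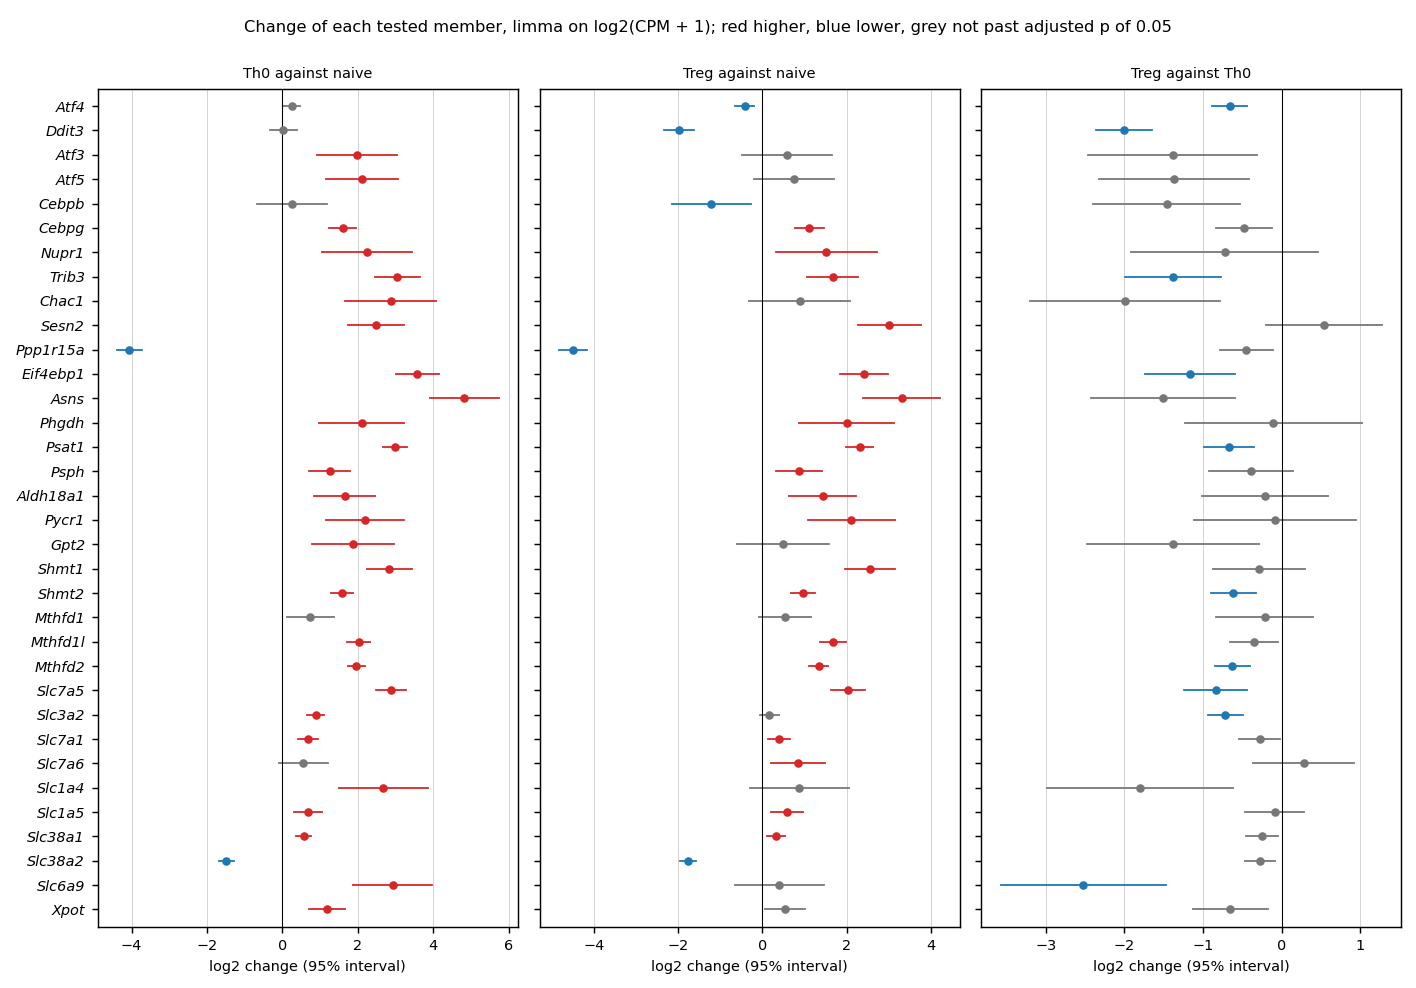
Change of the 34 tested genes in Th0 against naive, Treg against naive and Treg against Th0, as log2 differences with 95% intervals. Red marks genes called higher, blue lower and grey not called; in Treg against Th0 10 genes are blue, from Slc6a9 at -2.52 to Shmt2 at -0.61, and none is red.

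Of the stress regulators, 4 of 12 were called lower in Treg than in Th0: Ddit3, Trib3, Eif4ebp1 and Atf4. Ddit3 (ENSMUSG00000025408, protein coding, chr10:127290793-127296291) had 25.6 ± 3.49 CPM in Treg and 106 ± 13.5 in Th0 (SD, n = 3). This was a 4.01-fold lower level (-2.00, SE 0.17, limma adjusted p = 2.15e-07). A second row under the symbol Ddit3, ENSMUSG00000116429, was at 0 in every library of both tables and was not used. Mars, the methionyl-tRNA synthetase gene that overlaps Ddit3, was lower too, at 38.8 ± 4.72 against 73.8 ± 15.0 CPM (-0.90, limma adjusted p = 0.020), and its share in the Ddit3 value was not tested. Trib3 (ENSMUSG00000032715, chr2:152337425-152344060) fell 2.61-fold (-1.38, SE 0.29, limma adjusted p = 0.0053). Atf4 (ENSMUSG00000042406, chr15:80255184-80257545) fell 1.58-fold (-0.66, SE 0.11, limma adjusted p = 0.00052). Eif4ebp1 (ENSMUSG00000031490, chr8:27260327-27275656) fell 2.25-fold (-1.17, SE 0.27, limma adjusted p = 0.012). The Eif4ebp1 call was lost without Th0 replicate 1 (limma adjusted p = 0.063), Th0 replicate 2 (0.062) or Treg replicate 3 (0.095).

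The other 8 regulators were not called. Atf5, a further ATF family member that responds to mitochondrial stress, had 13.8, 16.6 and 20.8 CPM in Th0 and 8.61, 7.73 and 2.94 in Treg (-1.37, limma adjusted p = 0.097). Cebpb was at -1.46 (0.065), Chac1 at -1.99 (0.0503), Cebpg at -0.48 (0.127), Atf3 at -1.39 (0.153) and Ppp1r15a at -0.45 (0.129). In these 6, every Treg library lay below every Th0 library in CPM. For Atf3, Chac1 and Ppp1r15a the nearest Treg and Th0 libraries held equal reads and differed only by library size. They stood at 1.08 and 1.22, 2.15 and 2.22, and 25.8 and 26.6 CPM, in that order. edgeR on the recovered reads called Atf5, Cebpb, Cebpg and Chac1 lower, with adjusted p = 0.025, 0.0059, 0.043 and 0.011. Nupr1 (-0.73) and Sesn2 (0.54, 95% interval -0.20 to 1.28) overlapped between the groups.

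Of the enzymes of amino acid synthesis, Psat1 (ENSMUSG00000024640, chr19:15905123-15925059) was called, at 92.3 ± 8.50 CPM in Treg against 147 ± 12 in Th0 (-0.67, SE 0.15, limma adjusted p = 0.010). The call was lost without Th0 replicate 1 (limma adjusted p = 0.066) or Treg replicate 3 (0.064). Asns was at 12.2 ± 2.53 against 36.8 ± 9.96 CPM with no overlap (-1.50, SE 0.44) and a limma adjusted p of 0.0509, and edgeR gave an adjusted p of 5.07e-05. Gpt2 was at -1.38 with no overlap (limma adjusted p = 0.168). Phgdh (-0.11), Psph (-0.38), Aldh18a1 (-0.22) and Pycr1 (-0.08) overlapped between Treg and Th0. The first and last enzymes of the serine route therefore had no call where the middle one did, and the 95% interval of Phgdh ran from -1.23 to 1.02.

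In the folate group the mitochondrial enzymes Mthfd2 and Shmt2 were called. Mthfd2 (ENSMUSG00000005667, chr6:83305704-83326011) had 226, 209 and 212 CPM in Treg against 303, 352 and 348 in Th0 (-0.63, SE 0.11, limma adjusted p = 0.00081). Shmt2 (ENSMUSG00000025403, chr10:127517123-127522444) had 104, 83.1 and 88.2 CPM in Treg against 132, 142 and 147 in Th0 (-0.61, SE 0.14, limma adjusted p = 0.0094), and this call was lost without Treg replicate 2 (0.068). Mthfd1l, the third mitochondrial enzyme, did not overlap and was not called (-0.35, limma adjusted p = 0.226). The cytosolic Shmt1 (-0.29, 95% interval -0.87 to 0.30) and Mthfd1 (-0.22, -0.84 to 0.41) overlapped between the groups. No test compared the mitochondrial with the cytosolic enzymes.

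Of 9 tested transporters, Slc6a9, Slc7a5 and Slc3a2 were called lower. Slc6a9 (ENSMUSG00000028542, chr4:117835258-117869305) had tags in 1 of 3 Treg libraries and in all 3 Th0 libraries (-2.52, SE 0.50, limma adjusted p = 0.0035). Its mean of 0.43 CPM in Treg rests on 2 reads in 1 library. Slc3a2 (ENSMUSG00000010095, chr19:8706882-8723369) had 186 ± 4.51 CPM in Treg against 307 ± 20.8 in Th0 (-0.71, SE 0.11, limma adjusted p = 0.00019). Slc7a5 (ENSMUSG00000040010, chr8:121881146-121907686) had 64.5 ± 6.66 against 117 ± 23.3 CPM (-0.84, SE 0.19, limma adjusted p = 0.010), and its call was lost without Th0 replicate 3 (-0.69, 0.088) or Treg replicate 3 (-0.75, 0.064). Both chains of LAT1 were thus lower in all 3 Treg libraries than in any Th0 library. Slc1a4, which carries serine and alanine, had 9.54, 6.66 and 9.80 CPM in Th0 and 3.23, 0.64 and 1.96 in Treg (-1.80, limma adjusted p = 0.073, edgeR adjusted p = 0.021). Slc7a1, Slc38a1 and Slc38a2 lay at -0.28, -0.24 and -0.28 without overlap and without a call. Slc1a5 (-0.09, 95% interval -0.46 to 0.29) and Slc7a6 (0.28, -0.37 to 0.93) overlapped. Xpot, which exports tRNA from the nucleus, had 60.4, 56.6 and 64.9 CPM in Th0 and 34.5, 36.7 and 44.1 in Treg (-0.65, limma adjusted p = 0.116, edgeR adjusted p = 0.024).

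Of the 7 tested members with CARE letters in the promoter window, Trib3 was called lower in Treg than in Th0. Atf3, Chac1, Asns and Slc1a4 lay below Th0 in every library without a limma call. For Atf3 and Chac1 the nearest Treg and Th0 libraries held equal reads. Nupr1 and Pycr1, which also hold the letters, overlapped between Treg and Th0. Among all 34 tested members, 10 (29.4%) were called lower and 24 (70.6%) lay below Th0 in every library. The same held for 2.45% and 11.2% of all genes. Whether members with the letters differ from those without was not tested. The called members Ddit3, Atf4, Psat1, Mthfd2, Shmt2, Slc3a2 and Slc6a9 do not hold the letters in this window, and Eif4ebp1 and Slc7a5 had no promoter in the table.

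Genes that work beside the members were taken as further lists. The cytosolic aminoacyl-tRNA synthetases, which load amino acids onto tRNAs, were tested in the same fit: 9 of 20 were lower and 0 higher in Treg than in Th0 (median -0.48), where 2.45% of all genes were lower. Against naive, 19 were higher in Th0 and 16 in Treg, where 24.3% and 23.3% of all genes were. The asparaginyl enzyme Nars had 284, 298 and 299 CPM in Th0 and 173, 165 and 155 in Treg (-0.83, SE 0.11, limma adjusted p = 3.58e-05). The cysteinyl enzyme Cars had 63.6, 67.7 and 55.1 CPM in Th0 and 32.3, 24.5 and 35.3 in Treg (-1.01, limma adjusted p = 0.0073). The call of Cars was lost without Treg replicate 2 (limma adjusted p = 0.06), and that of Mars, whose values are given above with Ddit3, without Th0 replicate 1 (0.14), Treg replicate 1 (0.094) or Treg replicate 3 (0.069). Farsa (0.02), Hars (0.03) and Wars (0.15) were the 3 with a change above 0, and none of them was called.

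**Figure D3:**
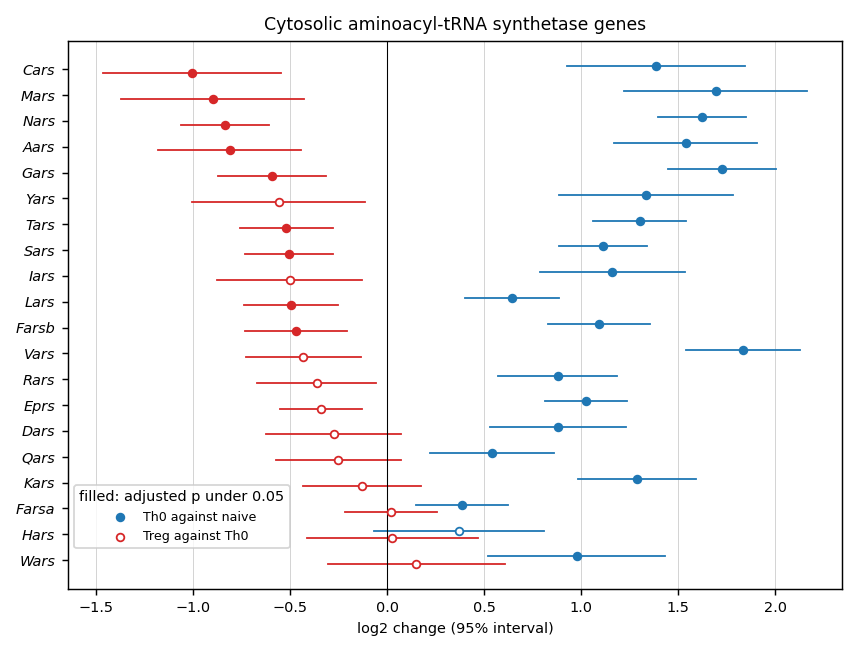
Change of 20 cytosolic aminoacyl-tRNA synthetase genes in Th0 against naive (blue) and Treg against Th0 (red), as log2 differences with 95% intervals; filled points are called. Of the 20, 19 are filled to the right of 0 for Th0 against naive, and 9 are filled to the left of 0 for Treg against Th0.

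Other lists around the response held 1 or 2 called genes each, or 5% to 11.8% of their tested members, where 5.44% of all genes were called. These shares lie near that of all genes, so the genes below are given as single genes. Of 14 genes of the eIF2 kinases, eIF2 and its exchange factor, Eif2s2, the β subunit of eIF2, was lower in Treg than in Th0 (-0.32, limma adjusted p = 0.039) and none was higher. Of 20 genes of the unfolded protein response of the endoplasmic reticulum, Herpud1 was lower (-0.91, limma adjusted p = 0.0032) and none was higher. Of 20 tested further ATF4 targets and mitochondrial stress genes, the mitochondrial protease Lonp1 (-0.65) and the mitochondrial chaperone Hspa9 (-0.50) were lower. Of 23 further folate and methionine cycle genes, Gldc was lower and Gcsh higher: both belong to the glycine cleavage system, which gives one-carbon units from glycine. Gldc had 5.30, 3.33 and 4.90 CPM in Th0 and 0 in every Treg and naive library, while Gcsh had 52.8, 52.9 and 45.1 CPM in Treg and 23.3, 24.4 and 23.3 in Th0 (1.05, SE 0.25, limma adjusted p = 0.015). Of 17 tested further transporters and amino acid sensors, Slc43a2 (0.84), a carrier of neutral amino acids, and Sesn3 (0.53), a relative of Sesn2, were higher in Treg and none was lower. Leaving out 1 Th0 or Treg library at a time ended the call for Eif2s2 and Lonp1 in 5 of 6 cases each (all but Treg replicate 1), for Gcsh without Th0 replicate 1 (limma adjusted p = 0.052), Treg replicate 1 (0.078) or Treg replicate 2 (0.091), and for Slc43a2 without Th0 replicate 1 (0.07), Th0 replicate 2 (0.057) or Treg replicate 2 (0.14). Sesn3 had 127, 116 and 129 CPM in Treg, 93.2, 86.6 and 77.2 in Th0 and 179, 208 and 184 in naive libraries.

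The Smad libraries put the question whether these genes in Treg cultures move when Smad2, Smad3 or both are targeted. A 3′ tag does not show an edit elsewhere in a transcript. Smad2 tags were 12 and 24 CPM in sgSmad2 and 13 and 18 in sgSmad2/3 libraries, against 37 and 29 without a guide. Smad3 tags were 26 and 25 CPM in sgSmad3 and 41 and 37 in sgSmad2/3 libraries. They were 30 and 34 CPM without a guide and 44 and 56 in sgSmad2 libraries. In the libraries labelled sgSmad2/3 they were thus lower than in sgSmad2 but not lower than without a guide. Acsl6 was 75 and 68 CPM without a guide, 82 and 78 in sgSmad2, 27 and 27 in sgSmad3 and 31 and 43 in sgSmad2/3 libraries. Of the 36 members 27 had 5 CPM or more in at least 2 libraries and were tested. Atf3, Nupr1, Chac1, Pycr1, Gpt2, Cth, Slc7a11, Slc1a4 and Slc6a9 were not. They reached at most 5 CPM in any Smad library.

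No member was called in any of 6 contrasts of the Smad libraries with limma. With 2 libraries per group, the share of all 10737 genes called was 0.00931% for sgSmad2, 0.0931% for sgSmad3 and 0.522% for sgSmad2/3 against no guide. It was 0.931% for the 4 libraries with a Smad3 guide (sgSmad3 and sgSmad2/3) against the 4 without, 0.102% for the 4 with a Smad2 guide against the 4 without, and 0% for the interaction of both guides, where 312 genes had an unadjusted p under 0.05. Unadjusted p was under 0.05 for 0 of 27 members in sgSmad2 (3.23% of all genes), for 5 in sgSmad3 (11.3%) and for 4 in sgSmad2/3 (10.6%). It was so for 8 in the Smad3-guide contrast (14.9%) and for 0 in the Smad2-guide contrast (4.77%). Of the 8 in the Smad3-guide contrast, 7 (25.9% of the 27 members) were higher and 1 lower, where 8.5% and 6.35% of all genes were. edgeR was not run on this table, whose values are rounded. All calls in the Smad table rest on a minimum of 5 CPM in 2 libraries: with a minimum of 1 CPM, limma called 0 genes in each of the 6 contrasts.

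In the 4 libraries with a Smad3 guide, 6 of 27 members (22.2%) lay above all 4 libraries without it, which held for 3.93% of all genes, and 0 lay below, which held for 3.31%. They were the mitochondrial folate enzymes Shmt2, Mthfd1l and Mthfd2, both LAT1 chains Slc7a5 and Slc3a2, and the glutamine carrier Slc38a1. The median change of the 27 members was 0.19 against 0.03 for all genes. Of the 27, 22 lay above 0 (21 under quantile and median-of-ratios scaling), where 54.1% of all genes did. With 1 library left out, the median ran from 0.107 without sgSmad3 replicate 1 and 0.115 without no-guide replicate 2 to 0.24, and the count above 0 from 19 without sgSmad2/3 replicate 1 to 23. Against no guide alone, Slc7a5 was at 0.93 in sgSmad3 and 0.58 in sgSmad2/3, and Shmt2 at 0.72 and 0.65, with limma adjusted p of 0.195 to 0.494. These values share the no-guide libraries.

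**Figure D4:**
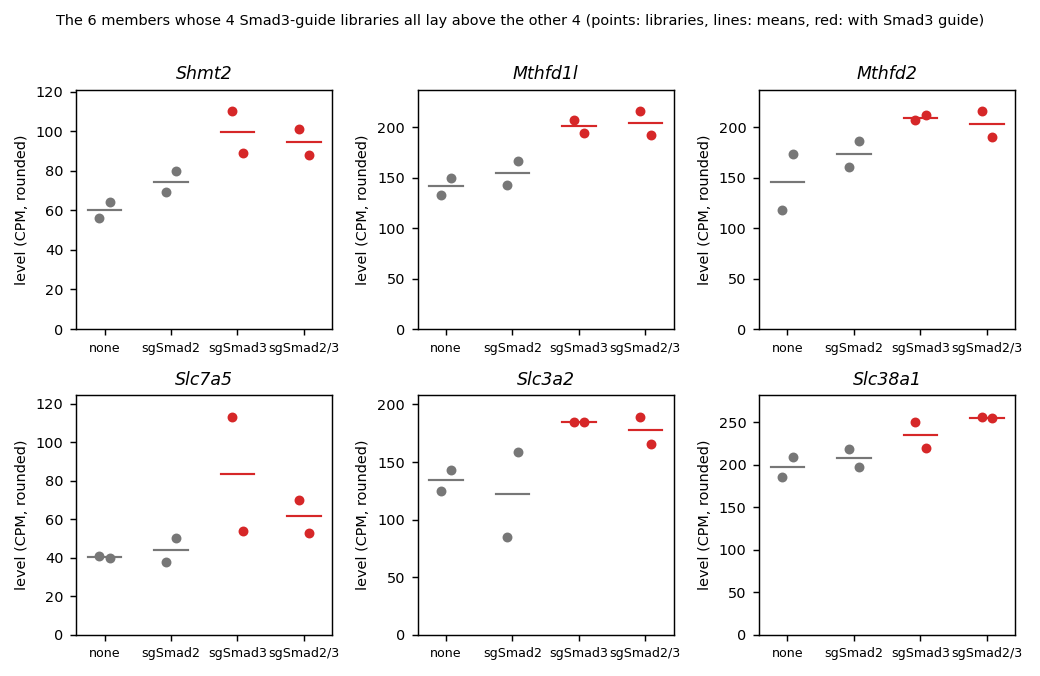
Level in CPM, rounded in the deposited table, of 6 members in each Treg library without a guide, with sgSmad2, with sgSmad3 and with sgSmad2/3. Points are libraries, lines are means of 2, and red marks libraries with a Smad3 guide; in each panel all 4 red points lie above the 4 grey points.

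Shmt2 had 56 and 64 CPM without a guide, 69 and 80 with sgSmad2, 110 and 89 with sgSmad3 and 101 and 88 with sgSmad2/3. The Smad3-guide change was 0.53 (SE 0.14, limma adjusted p = 0.082). Mthfd1l had 133 and 150 CPM without a guide, 143 and 167 with sgSmad2, 207 and 195 with sgSmad3 and 216 and 193 with sgSmad2/3. Its change was 0.45 (SE 0.12, limma adjusted p = 0.081). With the replicate number as a block, limma called both, at an adjusted p of 0.048 for Shmt2 and 0.044 for Mthfd1l. The labels do not say whether equal numbers pair these libraries. Same-numbered no-guide and sgSmad2 libraries shared deviations over genes (correlation 0.26), and the other groups less so. No other member was called with the block. Mthfd2 had 118 and 174 CPM without a guide, 161 and 187 with sgSmad2, 207 and 212 with sgSmad3 and 216 and 191 with sgSmad2/3 (0.39, SE 0.13, limma adjusted p = 0.183). Without no-guide replicate 1 the change of Mthfd2 was 0.25 (limma adjusted p = 0.56). The lowest Smad3-guide library of Mthfd2 (191) was 4 CPM above the highest of the others (187). The cytosolic enzymes were at 0.06 for Shmt1 (95% interval -0.32 to 0.43) and 0.25 for Mthfd1 (-0.21 to 0.71). The interval of Mthfd1 held the changes of Shmt2, Mthfd1l and Mthfd2. No test compared the cytosolic with the mitochondrial enzymes.

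Slc7a5 had 41 and 40 CPM without a guide, 38 and 50 with sgSmad2, 113 and 54 with sgSmad3 and 70 and 53 with sgSmad2/3. Its change was 0.70 (SE 0.20, limma adjusted p = 0.115), and it was called without sgSmad3 replicate 2 (0.97, limma adjusted p = 0.025). The library sgSmad3 replicate 1 stood above the rest, and without it the change was 0.44 (limma adjusted p = 0.35). Slc3a2 had 125 and 143 CPM without a guide, 85 and 159 with sgSmad2, 185 and 185 with sgSmad3 and 189 and 166 with sgSmad2/3 (0.53, SE 0.16, limma adjusted p = 0.135). The 2 sgSmad2 libraries of Slc3a2 lay far apart: without replicate 2 its change was 0.76 and called (limma adjusted p = 0.014), and without replicate 1 it was 0.31 and not called (0.40). Mthfd1l was also called without sgSmad2 replicate 2 (0.51, limma adjusted p = 0.045), and its adjusted p was 0.12 to 0.45 with any other library left out. Slc38a1 had 186 and 209 CPM without a guide, 218 and 197 with sgSmad2, 250 and 220 with sgSmad3 and 256 and 255 with sgSmad2/3 (0.27, SE 0.11, limma adjusted p = 0.261).

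Aldh18a1, of proline synthesis, leaned the other way, at 22 and 12 CPM without a guide, 16 and 19 with sgSmad2, 9 and 7 with sgSmad3 and 14 and 11 with sgSmad2/3. Its Smad3-guide change was -0.70 (SE 0.25, limma adjusted p = 0.198) and the groups overlapped. Eif4ebp1 ranged from 19 to 41 CPM in the 4 libraries without and 26 to 56 in the 4 with a Smad3 guide (0.53, limma adjusted p = 0.309), and its change was 0.31 without sgSmad2 replicate 1, 0.33 without no-guide replicate 1 and 0.34 without sgSmad3 replicate 2. The central regulators did not separate: Atf4 had 155 to 215 CPM without and 171 to 285 with a Smad3 guide (0.20, 95% interval -0.10 to 0.51), Ddit3 24 to 26 and 23 to 33 (0.15, -0.24 to 0.53), and Trib3 12 to 19 and 16 to 20 (0.27, -0.20 to 0.73). Asns had 3 to 6 CPM without and 2 to 7 with a Smad3 guide. Cebpb had 6 to 9 CPM without and 9 to 18 with a Smad3 guide (0.57, limma adjusted p = 0.362), so its ranges met at 9. Ppp1r15a, at 59 to 81 and 53 to 70 CPM (-0.23), and Xpot, at 32 to 44 and 25 to 43 (-0.29), lay below 0 without a call. Psat1 had 66 to 83 and 76 to 99 CPM (0.14), Phgdh 5 to 9 and 7 to 11 (0.30) and Slc38a2 264 to 398 and 346 to 375 (0.20), all with overlap.

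**Figure D5:**
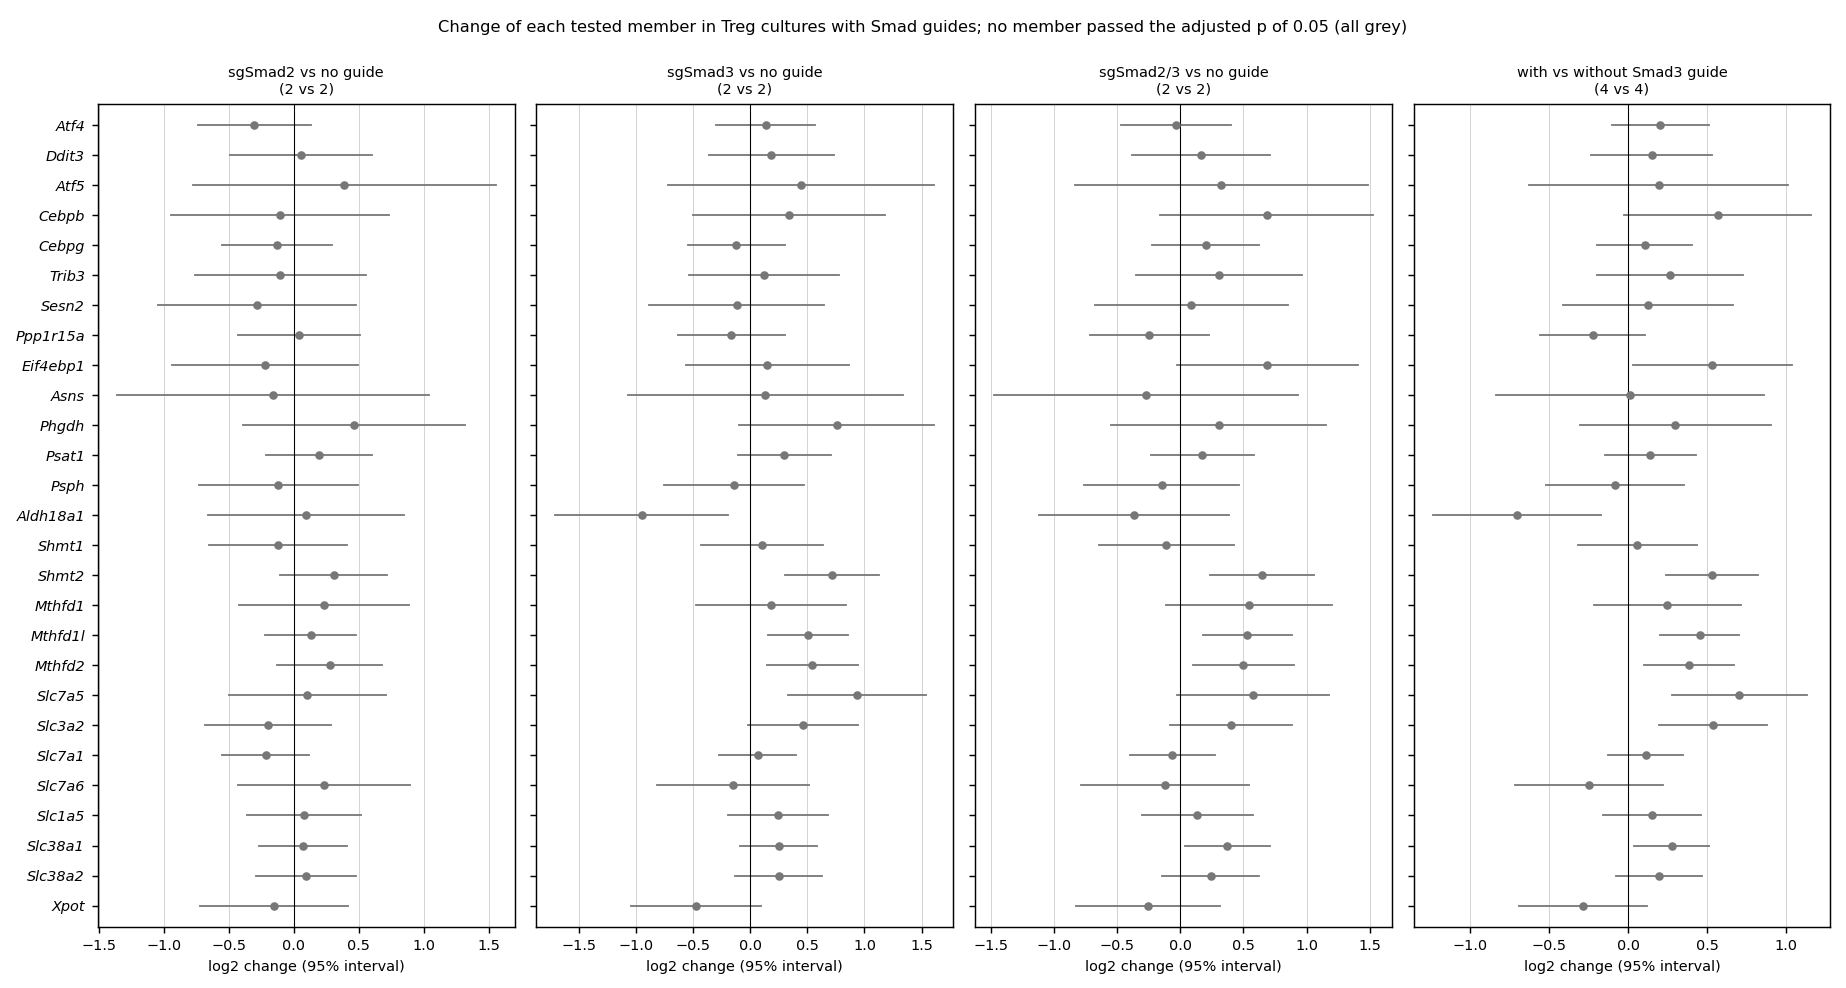
Change of the 27 tested genes in sgSmad2, sgSmad3 and sgSmad2/3 against no guide (2 libraries each) and in the 4 libraries with against the 4 without a Smad3 guide, as log2 differences with 95% intervals. No gene was called; in the last panel 22 of 27 points lie above 0 and Slc7a5 is highest at 0.70.

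Markers of myeloid and red cells were higher in libraries with a Smad3 guide, while those of other cells overlapped. The 8 B cell markers summed to 2 to 6 CPM without and 3 to 8 with a Smad3 guide. The 8 markers of CD8, NK and gamma-delta T cells summed to 51 to 72 and 47 to 63 CPM. The summed level of 9 myeloid markers was 1 to 6 CPM in the 4 libraries without and 7 to 66 in the 4 with a Smad3 guide, and S100a9 was called higher (limma adjusted p = 0.018). That of 5 red cell markers was 13 to 25 and 32 to 144 CPM, and Hba-a1 and Hbb-bs were called higher. Of 17 other settings, the call of S100a9 was lost in 9, that of Hba-a1 in 4 and that of Hbb-bs in 9. Of the 9 myeloid markers, 2 stood at 0 in both sgSmad3 libraries and 2 in both sgSmad2/3 libraries. S100a8 had 19 and 1 CPM in sgSmad3 and 2 and 27 in sgSmad2/3 libraries, and S100a9 had 25 and 2, and 10 and 27. The 8 CD4 T cell markers summed to 1687 to 2190 CPM without and 2109 to 2202 with a Smad3 guide, and Cd28 was called higher in the latter, a call lost in 8 of 17 other settings. The part of these in the higher levels of Shmt2, Mthfd1l, Mthfd2, Slc7a5, Slc3a2 and Slc38a1 was not tested.

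Of the further lists, 1 gene was called in the Smad libraries. Farsa, the α subunit of the phenylalanyl-tRNA synthetase, had 195 and 216 CPM without a guide, 220 and 285 with sgSmad2, 444 and 395 with sgSmad3 and 288 and 284 with sgSmad2/3. It was higher in sgSmad3 than without a guide (1.03, SE 0.17, limma adjusted p = 0.027) and in the Smad3-guide contrast (0.61, SE 0.12, limma adjusted p = 0.018), where its groups overlapped by 1 CPM. Each of these calls was lost in 9 of 17 other settings. The sgSmad3 call was lost when either no-guide, either sgSmad3 or either sgSmad2/3 library was left out (0.94 to 1.11, limma adjusted p of 0.06 to 0.35). The Smad3-guide call was lost without either no-guide or either sgSmad2/3 library, without sgSmad2 replicate 1 and without sgSmad3 replicate 1 (limma adjusted p of 0.06 to 0.24). The other 19 synthetases were not called, and the median of the 20 was 0.04 in the Smad3-guide contrast.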

How the data were processed

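QuantSeq 3′ mRNA libraries were used, 9 of the cell-type and 8 of the Smad experiment; other samples were not analysed here. The submitters' processing notes list STAR 2.7.9a, Subread 2.0.1, Bowtie2, deepTools and mm10, with no role or order. The annotation is unknown here. The authors deposited cell-type values as CPM, under the name TPM: 100% of the values were whole multiples of 1 read within a tolerance of 0.01. Smad values were deposited by the authors as a score, CPM rounded to whole numbers. A last line without a gene name held the worth of 1 read and was left out. The plan had taken both tables for TPM.

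Differences of log2(CPM + 1) were tested with limma 3.58.1 (R 4.3.3), with a mean-variance trend, 1 model per table, Benjamini-Hochberg adjustment and a threshold of 0.05. A cell-type gene needed 1 CPM in at least 3 libraries. For the Smad table the first choice was 1 CPM in 2 libraries. Tested on simulated rounded data, it gave many false calls in 2 of the 3 contrasts of a guide against no guide and 5 CPM gave few, so 5 CPM was used. In the Smad3-guide contrast the simulation gave 0 calls at 1 CPM, and 123 at 5 CPM with 2 of them false. The simulation gave all genes the same spread beyond counting noise, which the deposited data need not have. In the deposited data 1 CPM gives 0 calls in each Smad contrast, unlike in the simulation. All Smad calls thus rest on this change of the minimum. edgeR 4.0.16 (quasi-likelihood) was run on the recovered cell-type reads. Values per library are given for members called in Treg against Th0 and for those that changed most against naive, and for further members chosen after their values were seen. Called genes with the largest changes are named from each further list. Members and lists were chosen with earlier results of these data known. Each replicate pair differed beyond counting noise. Same-numbered libraries shared deviations over genes weakly in the cell-type table (correlations of -0.0029 to 0.041) and between most Smad groups (0.015 to 0.049). Between no guide and sgSmad2 the correlation was higher, at 0.26. The labels do not say whether equal numbers pair samples, so the main fit used no pairing.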

Additional observations from a re-analysis of the deposited data

How the results depend on the processing

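The 10 calls in Treg against Th0 became 4 without the intensity trend and 17 with edgeR on the recovered reads, and 8 to 15 when each library was left out in turn. Ddit3, Slc3a2, Slc6a9 and Trib3 kept their call under every alternative that tested them. Over all genes the 770 calls became 453 without the trend, 503 without Treg replicate 2 and 1066 with edgeR. The lowest and highest counts of members with a library left out were 21 and 25 in Treg against naive (25 with all), 29 and 30 in Th0 against naive (29 with all), and 0 in each guide against no guide. For the Smad3-guide contrast they were 0 and 2: 2 without sgSmad2 replicate 2 and 1 without sgSmad3 replicate 2. The replicate block gave 2 calls there (Shmt2 and Mthfd1l) in place of 0, 11 in Treg against Th0, 25 in Treg against naive and 30 in Th0 against naive, and 0 in each guide against no guide. In the Smad3-guide contrast the 100 genes called became 247 with the replicate block, 2 without the trend, and 0 with a minimum of 1 CPM or no filter. Of all genes, the 10 called in sgSmad3 ranged from 0 to 27 over the alternatives, the 56 in sgSmad2/3 from 0 to 110 and the 11 in the Smad2-guide contrast from 0 to 18, the highest count in each with the replicate block. Without sgSmad2/3 replicate 1 or replicate 2, the 100 in the Smad3-guide contrast became 11 and 9, and 260 without sgSmad2 replicate 2. Removing Gm42418, a locus with 4.81% to 11.4% of the reads, was added after the data were seen and kept each count of members within 1.5 times. Depth limits members at a few reads per library, such as Chac1, Atf3, Nupr1 and Slc6a9.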
